A study of Mus musculus with 10 samples.

Results

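The genes described here set how fast mouse liver takes glucose and fructose into glycolysis and lets them out as pyruvate. They are Slc2a2, Gckr, Khk, Pfkl, Pfkfb1, Pfkfb3 and Pklr. These 7 genes were chosen with earlier results of these data known, and their probe sets were found by name in the array annotation. Of the 7, 6 had a probe set there, 1 each, among 19933 genes tested. No probe set carried the name Pfkfb1, so that gene was not analysed here.

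Liver RNA of 5 Nr1d1 -/- (KO) mice and 5 wild-type (WT) mice was hybridized to Affymetrix Mouse Gene 1.0 ST arrays, 1 mouse per array. Nr1d1 encodes Rev-erb alpha, a nuclear receptor that represses transcription and links the circadian clock to liver metabolism. All animals were males aged 10 to 12 weeks on normal chow, housed with 12 h light and 12 h dark per day, and killed at ZT10 (10 h after lights on). The KO mice lack Rev-erb alpha in the whole body and came from a line crossed back to C57Bl/6 for 7 generations or more, whereas the C57Bl/6 WT mice were purchased. Effects of genotype and of the origin of the mice cannot be told apart. The comparison asks how the liver transcripts of these genes differ without Rev-erb alpha late in the light phase.

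Glucose enters hepatocytes through the transporter GLUT2 and is phosphorylated, a step that a regulatory protein in the nucleus restrains when fructose 6-phosphate is high and frees when fructose 1-phosphate rises. Phosphofructokinase then commits the sugar to glycolysis, and its strongest activator is fructose 2,6-bisphosphate, which the bifunctional PFKFB enzymes make and break down. Fructose bypasses that step through ketohexokinase, and pyruvate kinase closes the pathway. In the fed liver the pathway supplies carbon for fat synthesis, and in the fasted liver it is held back while glucose is made.

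The deposited intensities ran from 8.93 to 18280 on a linear scale and are given here as log2. The median of an array lay between 7.28 and 7.37. The number of arrays limits the precision. The Nr1d1 probe set read 9.29 to 10.54 in KO livers and 9.60 to 10.00 in WT livers (log2 intensity). The sources used here do not say whether it covers the deleted part, so it checks nothing about the genotype. All 9 hepatocyte markers measured, among them Alb and Ttr, lay above the lower quartile of all genes, and 0 of 9 passed the test in limma (1 of 9 at an unadjusted p under 0.05, as were 3461, or 17.4%, of all genes tested). WT replicate 1 and KO replicates 4 and 5 had the widest spread of intensities, with an interquartile range of 2.98, 2.96 and 2.99 on the log2 scale. Values without these 3 arrays are given where a call rests on them. WT replicates 5 and 2 came close behind (2.94 and 2.93), so the cut at 3 arrays follows no clear gap. The ranges of WT replicate 3 and KO replicates 1, 2 and 3 were narrower, at 2.80 to 2.82.

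Members count as called where their limma p-value, adjusted by Benjamini-Hochberg over the whole table of genes, was under 0.05. Of the 6 measured members, Gckr was called higher and Pfkfb3 called lower in KO livers, and the other 4 did not pass. Over all genes 5.61% were called, 3.17% higher and 2.44% lower. The median difference, KO minus WT, was -0.06 on the log2 scale over the 6 members and 0.01 over all genes. With so few members these counts describe single genes and not the group.

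**Figure D1:**
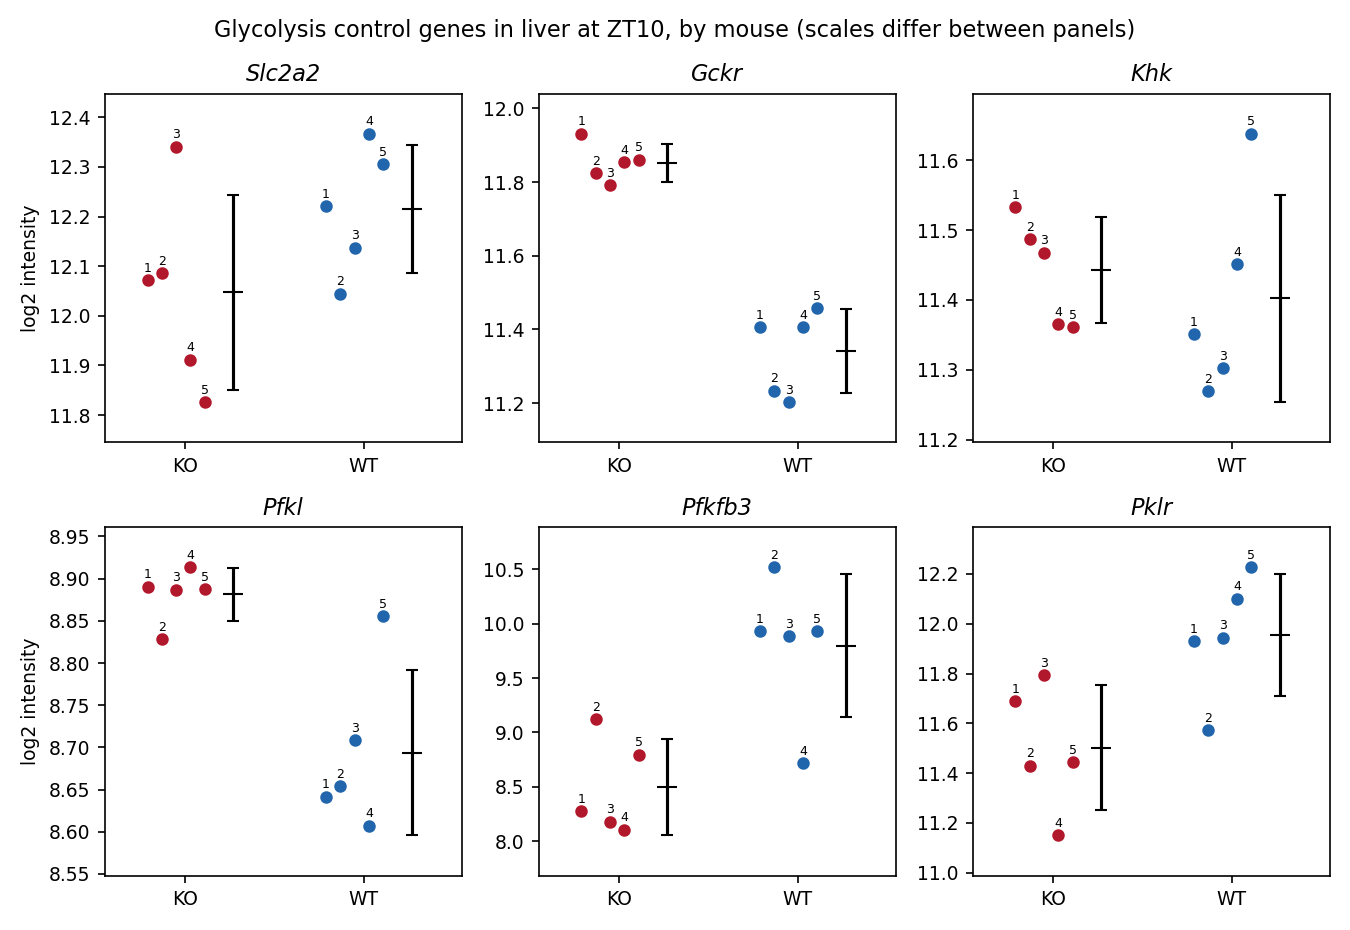
Log2 intensity (y axis, a separate scale in each panel) of the 6 measured members in 5 KO livers (red, left) and 5 WT livers (blue, right). Each point is 1 mouse with its replicate number, and bars are the mean ± SD. Gckr is the member whose KO and WT points do not overlap, whereas Pfkfb3 in WT replicate 4 (8.72) lies among the KO points.

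Slc2a2 encodes GLUT2, the high-capacity glucose transporter of the hepatocyte membrane. Its log2 intensity was 12.07, 12.09, 12.34, 11.91 and 11.83 in the KO livers and 12.22, 12.04, 12.14, 12.37 and 12.31 in the WT livers. KO replicates 4 and 5 lay below every WT liver and KO replicate 3 among the highest, so the groups overlapped. The difference was -0.17 with a 95% interval of -0.37 to 0.03 and a limma adjusted p of 0.403, and it was -0.05 without the 3 arrays of widest interquartile range. A decrease larger than 0.37 on the log2 scale lies outside that interval.

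Gckr encodes the nuclear regulatory protein that restrains the phosphorylation of glucose in hepatocytes. It read 11.93, 11.82, 11.79, 11.85 and 11.86 in the KO livers and 11.41, 11.23, 11.20, 11.41 and 11.46 in the WT livers (log2 intensity). The lowest KO liver (11.79) exceeded the highest WT liver (11.46), a separation in either direction that 7.00% of all genes showed. The means were 11.85 ± 0.052 in KO and 11.34 ± 0.11 in WT (SD, n = 5 each), a 1.43-fold increase. The log2 difference was 0.51 with SE 0.058, a 95% interval of 0.39 to 0.64 and a limma adjusted p of 0.000252. It ranked 91 among the 19933 genes by p-value, while 97.9% of genes had a smaller difference in size. Gckr kept its call under all 18 alternative settings, with differences of 0.48 to 0.54 and adjusted p up to 0.00942.

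Of 6 measured genes in the list of hexokinases and their regulator, Gckr was higher and the other 5 did not pass. The closest of those to the threshold were Adpgk, which encodes a sugar kinase that uses ADP (-0.09, adjusted p = 0.530), and Hk3, a hexokinase of blood cells (-0.08, adjusted p = 0.575).

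The promoter of Gckr is shown because this was the member with the firmest difference, and the upstream promoters of Pfkfb3 because it had the widest. The sequences are the 250 bases before the RefSeq transcript start (GRCm38.p6), 5′ to 3′ on the strand of the gene. Capitals mark the letters AGGTCA, the half-site bound by Rev-erb and ROR receptors, and ACGTG, the core shared by the clock's E-box CACGTG and by hypoxia response elements, on either strand.
Gckr, chr5:31297313-31297562, plus strand: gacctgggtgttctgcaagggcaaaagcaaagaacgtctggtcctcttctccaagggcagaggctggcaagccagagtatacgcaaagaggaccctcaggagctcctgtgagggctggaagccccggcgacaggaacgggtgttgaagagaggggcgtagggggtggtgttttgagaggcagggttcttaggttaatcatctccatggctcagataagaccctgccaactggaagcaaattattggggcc
Pfkfb3 start 1, chr2:11553930-11554179, minus strand: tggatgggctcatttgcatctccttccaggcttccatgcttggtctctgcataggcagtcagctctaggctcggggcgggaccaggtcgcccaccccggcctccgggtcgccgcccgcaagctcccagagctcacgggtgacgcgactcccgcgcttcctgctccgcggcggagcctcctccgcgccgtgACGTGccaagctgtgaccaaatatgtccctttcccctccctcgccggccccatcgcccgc
Pfkfb3 start 2, chr2:11502091-11502340, minus strand: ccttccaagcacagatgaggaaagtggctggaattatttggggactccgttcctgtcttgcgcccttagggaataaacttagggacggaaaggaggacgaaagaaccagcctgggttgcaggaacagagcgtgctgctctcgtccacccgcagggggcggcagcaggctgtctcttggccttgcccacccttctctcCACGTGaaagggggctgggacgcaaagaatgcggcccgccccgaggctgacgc

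None of the 3 windows held AGGTCA (or its reverse complement TGACCT), which 14.0% of 32851 promoter windows of that length did. The Gckr window held no ACGTG (reverse complement CACGT) either. In Pfkfb3, the first start had ACGTG at 60 bases before it, and the second had the full CACGTG at 53 bases before it, which holds ACGTG on both strands. ACGTG was in 16.6% and CACGTG, its own reverse complement, in 6.02% of the windows. Among the other members, Slc2a2 had AGGTCA at 21 bases before its start, the first Pklr start had it on the minus strand at 151 bases, the third Pfkfb1 start had it on the minus strand at 100 bases, and Khk had CACGTG at 71 bases. Letters outside these windows were not searched, and a match is not a bound site.

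Pfkfb3 encodes the inducible PFKFB isoform, whose kinase activity far exceeds its phosphatase activity, so that it favours fructose 2,6-bisphosphate and glycolysis. Its log2 intensity was 8.27, 9.12, 8.18, 8.11 and 8.80 in the KO livers and 9.93, 10.52, 9.89, 8.72 and 9.93 in the WT livers. On the linear scale the same livers read 276 to 558 in KO and 420 to 1467 in WT. Of the 5 KO livers, 3 lay below every WT liver, while KO replicates 2 and 5 lay above WT replicate 4, so the groups overlapped. No other measured member spread as widely within a genotype, over 1.02 in KO and 1.80 in WT on the log2 scale.

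Pfkfb3 fell to a mean of 8.50 ± 0.44 in KO livers, against 9.80 ± 0.66 in WT livers (log2 intensity, SD, n = 5 each), which is 0.406 times the WT level. The log2 difference was -1.30 with SE 0.29 and a 95% interval of -1.93 to -0.67. Its size exceeded that of 99.8% of all genes, yet by p-value it ranked 699, with a limma adjusted p of 0.0195. Gckr, with a difference less than that of Pfkfb3 but SDs of 0.052 and 0.11, ranked far ahead.

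The call of Pfkfb3 lay close to the threshold when any of several single arrays was left out. It was lost without KO replicate 3 (adjusted p = 0.0526) or KO replicate 4 (0.0567), at differences of -1.22 and -1.20. Without the 3 arrays of widest interquartile range, the adjusted p was 0.152 at a difference of -1.24 (3 KO against 4 WT livers). Without WT replicate 4, the WT liver of lowest Pfkfb3, the difference was -1.57 with an adjusted p of 0.00113. Over the 18 settings the adjusted p ran from 0.00113 to 0.152, and the direction was the same in each.

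**Figure D2:**
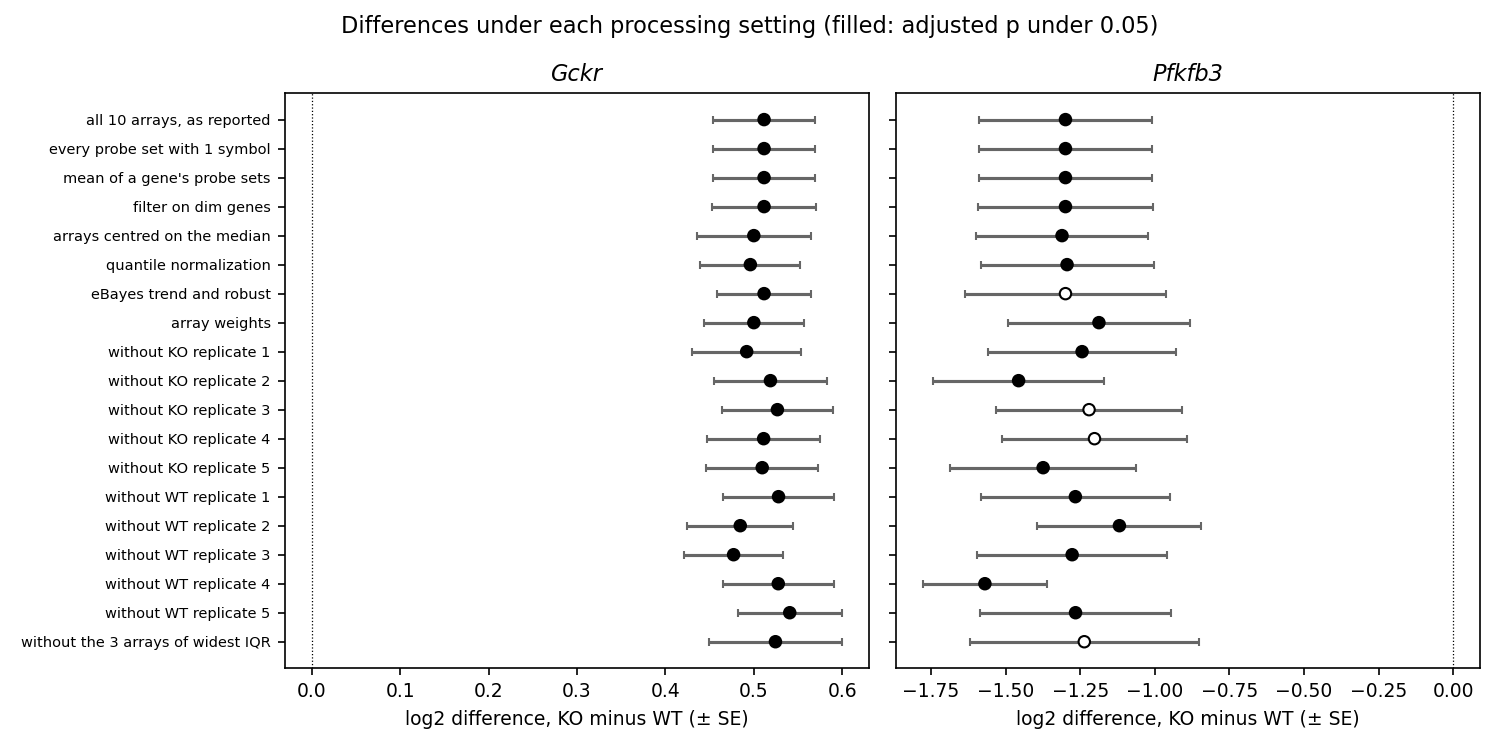
Log2 difference, KO minus WT, of Gckr (left panel) and Pfkfb3 (right panel) with all 10 arrays and under each of 18 other settings, with the SE of the fit as bars. Filled points have an adjusted p under 0.05. Gckr is filled throughout, and Pfkfb3 is open in 4 settings while staying between -1.57 and -1.12.

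The paralogs of Pfkfb3 were named after their values were seen. Pfkfb2, the heart-type isoform that is also made in other tissues, averaged 9.39 ± 0.18 in KO and 9.62 ± 0.21 in WT livers (log2 intensity, SD, n = 5 each), with a difference of -0.23 (SE 0.11, adjusted p = 0.282). Pfkfb4, the testis-type isoform, averaged 6.72 ± 0.12 in KO and 6.71 ± 0.064 in WT livers, with a difference of 0.01 (adjusted p = 0.981). Neither passed the test. Pfkfb1, the liver-type isoform and main hepatic source of the enzyme, was not analysed here, so the total for the PFKFB step is not known from these values.

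Pfkl encodes the liver subunit of phosphofructokinase, the enzyme that fructose 2,6-bisphosphate activates. It read 8.89, 8.83, 8.89, 8.91 and 8.89 in the KO livers and 8.64, 8.65, 8.71, 8.61 and 8.86 in the WT livers (log2 intensity). Of the KO livers, 4 lay above every WT liver, and WT replicate 5 lay above KO replicate 2. The difference was 0.19 (SE 0.052, 95% interval 0.08 to 0.30) and missed the threshold with a limma adjusted p of 0.0560. It passed without WT replicate 5 (adjusted p = 0.0137), with quantile normalization (0.0298) and with dim genes left out (0.0473), with 0.0137 to 0.263 over all settings. Pfkl lay above the median of each of the 10 arrays but above the upper quartile of 0 of them. Slc2a2, Gckr, Khk and Pklr were above the upper quartile of all 10 arrays, and Pfkfb3 was above that of 5.

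Pklr encodes the liver and red cell pyruvate kinase, the enzyme of the last step and a gene that carbohydrate intake induces through ChREBP. Its log2 intensity was 11.69, 11.43, 11.79, 11.15 and 11.44 in the KO livers and 11.93, 11.57, 11.94, 12.10 and 12.23 in the WT livers. Of the KO livers, 3 lay below every WT liver, while WT replicate 2 lay under KO replicates 1 and 3. The difference was -0.45 (SE 0.13, 95% interval -0.74 to -0.17) with an adjusted p of 0.0695 in limma. Without WT replicate 2 the adjusted p was 0.0230 at a difference of -0.55, and without KO replicate 3 it was 0.0466 at -0.53. Without the 3 arrays of widest interquartile range it was 0.317 at -0.32, the highest over all settings. The interval leaves out 0, yet the adjustment over all genes does not call the gene.

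Khk encodes ketohexokinase, which makes fructose 1-phosphate. It read 11.53, 11.49, 11.47, 11.36 and 11.36 in the KO livers and 11.35, 11.27, 11.30, 11.45 and 11.64 in the WT livers (log2 intensity). The KO livers all lay inside the range of the WT livers. The difference was 0.04 with a 95% interval of -0.11 to 0.19 (limma adjusted p = 0.864). A change of more than 0.19 in either direction is therefore outside the interval. The difference was 0.01 without WT replicate 2 and 0.10 without WT replicate 5, the lowest and highest with 1 array left out, and Khk was not called in any of the 18 settings.

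**Figure D3:**
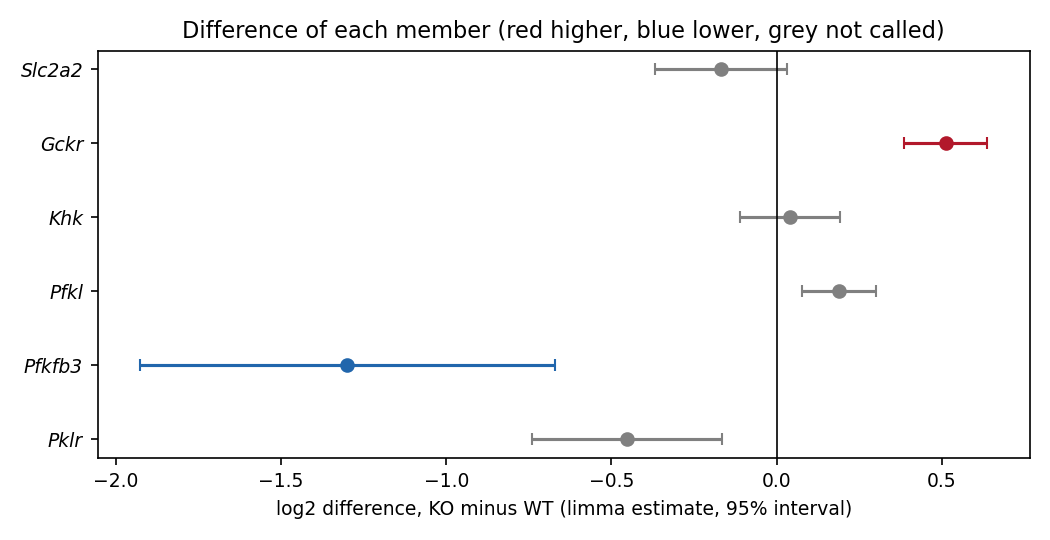
Log2 difference, KO minus WT (x axis), of each measured member with the 95% interval of the limma fit. Gckr (0.51, red) was called higher and Pfkfb3 (-1.30, blue) lower, and the 4 members in grey were not called, though the intervals of Pfkl and Pklr leave out 0.

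Khk and Gckr lie near each other on chromosome 5 in the RefSeq gene order of GRCm38.p6, with 20 tested genes between them. Limma called 0 of these 20 (6 at an unadjusted p under 0.05, a level that 17.4% of all genes tested reached), and their median difference was 0.02 on the log2 scale.

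The members were also compared by how they varied between mice of 1 genotype, after the mean of each genotype was subtracted. Over the 10 arrays, Pklr and Slc2a2 had a Pearson correlation of 0.79, Pklr and Khk 0.76, Gckr and Khk 0.70 and Slc2a2 and Khk 0.63. Pfkfb3 went the other way, with -0.49 to Slc2a2, -0.41 to Pklr, -0.38 to Gckr and -0.24 to Khk, but 0.10 to Pfkl. In WT replicate 2, for example, Pfkfb3 was 0.72 above its WT mean while Pklr was 0.38, Slc2a2 0.17 and Khk 0.13 below theirs. In WT replicate 4 Pfkfb3 was 1.08 below its mean and Pklr 0.15 above. KO replicate 3 also had Pfkfb3 0.32 below its KO mean, with Pklr and Slc2a2 each 0.29 above theirs. KO replicate 4 and WT replicate 5 did not show this opposition, and KO replicate 2 and WT replicate 1 were mixed. In KO replicate 2, Pfkfb3 was 0.63 and Slc2a2 and Khk each 0.04 above their KO means, with Pklr 0.07 below its own. In WT replicate 1, Pfkfb3 was 0.13 and Slc2a2 0.01 above their WT means, with Pklr 0.02 and Khk 0.05 below theirs. In KO replicate 4, Pfkfb3 was 0.39, Pklr 0.35, Slc2a2 0.14 and Khk 0.08 below their KO means, and in WT replicate 5 Pfkfb3 was 0.13, Pklr 0.27, Slc2a2 0.09 and Khk 0.24 above their WT means. These values are a description of 10 livers that share their array processing, and no test was made of them.

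Among 14948 genes above the lower quartile of mean intensity, those that followed Pfkfb3 most closely between mice of 1 genotype were Pfdn2 (0.96), Spaca6 (0.91), Ythdf1 (0.89), Rbm8a (0.88) and Fads1 (0.88). The most opposite were C4bp (-0.95), Pxn (-0.92), Tctn1 (-0.89), Cpeb3 (-0.88) and Dglucy (-0.87). These are the extremes of many correlations over 10 arrays. Of the 10 genes, Pxn passed the test between genotypes, at a difference of 0.22 (adjusted p = 0.0256).

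The wider pathway was read from 9 lists with 103 genes, of which 90 were measured. Limma called 5 of the 90 higher and 5 lower, which is 11.1% against 5.61% of all genes, and Gckr and Pfkfb3 are 2 of these 10. Without the members, 4 of 84 were called higher and 4 lower. The lists were chosen with earlier results of these data known, so their share of called genes is only a description. At an unadjusted p under 0.05 there were 30 of the 90, against 17.4% of all genes. By list these were 8 of 11 hypoxia targets, 6 of 9 genes of the phosphofructokinase step, 6 of 17 around pyruvate and lactate, 3 of 11 in lower glycolysis, 3 of 7 of the pentose phosphate pathway, 2 of 17 regulators, 1 of 6 hexokinases and their regulator, 1 of 4 in fructose metabolism and 0 of 9 glucose transporters. The median difference of the 90 genes was -0.03, and 39 of them had a difference above 0.

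In lower glycolysis, Aldoa alone of 11 measured genes was called, and it fell. This aldolase of muscle and many other tissues averaged 10.66 ± 0.045 in KO and 11.15 ± 0.087 in WT livers (log2 intensity, SD, n = 5 each), with no overlap of the groups. Its difference was -0.49 with SE 0.050 (adjusted p = 0.000116). Its paralog Aldoc differed by -0.34 (adjusted p = 0.133) and did not pass. The median over the list was -0.07.

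Around pyruvate, Slc16a1 and Pdpr rose, and the other 15 of 17 genes did not pass. Slc16a1 encodes the lactate and pyruvate transporter MCT1. It averaged 10.54 ± 0.14 in KO and 9.91 ± 0.14 in WT livers, a 1.55-fold increase (SE 0.081 on the log2 scale, adjusted p = 0.000591), and the groups did not overlap. Pdpr, which encodes a regulatory subunit of the phosphatase that activates pyruvate dehydrogenase, rose by 0.23 (SE 0.049, adjusted p = 0.0175). Pdk2, a kinase that inactivates the same complex, had a difference of 0.18 and an adjusted p of 0.0737. The call of Pdpr was lost without the 3 arrays of widest interquartile range (adjusted p = 0.154, against 0.00885 at the lowest over all settings).

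Among 4 measured genes of fructose metabolism, Tkfc fell, while Khk, the fructose transporter gene Slc2a5 (0.30, adjusted p = 0.373) and the glycerate kinase gene Glyctk (-0.07, adjusted p = 0.714) did not pass. Tkfc encodes triokinase, which phosphorylates the glyceraldehyde released from fructose 1-phosphate. It averaged 12.05 ± 0.19 in KO and 12.60 ± 0.12 in WT livers (log2 intensity, SD, n = 5 each). The groups did not overlap, and the difference was -0.55 (SE 0.089, adjusted p = 0.00301).

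No gene passed among 9 glucose transporters (0 at an unadjusted p under 0.05) or among 7 genes of the pentose phosphate pathway (3 at an unadjusted p under 0.05) in limma. Beside Slc2a2, the transporter genes nearest the threshold were Slc2a8 (-0.11, adjusted p = 0.361) and Slc2a5. In the pentose phosphate list they were Rpia (-0.25, adjusted p = 0.107), Tkt (-0.13, 0.172) and Pgd (-0.16, 0.225). At the phosphofructokinase step, Pfkfb3 was the 1 gene called of 9. The phosphatase gene Fbp1, which runs the opposite reaction in gluconeogenesis, had a difference of -0.11 (adjusted p = 0.141) with no overlap of the groups. Pfkm of the same list, named after its values were seen, had no overlap either (-0.09, adjusted p = 0.288). Such a separation was seen in 7.00% of all genes.

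Of 17 measured regulators of glycolytic genes, Prkaa2 fell and 16 did not pass. Prkaa2 encodes a catalytic subunit of the energy sensor AMPK and averaged 10.99 ± 0.11 in KO and 11.31 ± 0.12 in WT livers (difference -0.32, SE 0.068, adjusted p = 0.0150). That call was lost without the 3 arrays of widest interquartile range (adjusted p = 0.119, against 0.00738 at the lowest over all settings). Mlx, the partner of ChREBP, had a difference of -0.20 (adjusted p = 0.288), and the insulin-restrained factor gene Foxo1 one of 0.18 (adjusted p = 0.432). The Foxo1 difference was 0.07 without KO replicate 5 and 0.05 without the 3 arrays of widest interquartile range.

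Pfkfb3 is also a known target of hypoxia-inducible factors, so other such targets were read beside it. Of 11 measured, Ndrg1 and Egln1 were higher, Vegfa was lower and 8 did not pass, while 8 of the 11 had an unadjusted p under 0.05. Ndrg1, a stress-responsive gene, read 9.73 to 10.81 in KO and 8.36 to 8.59 in WT livers, a 3.17-fold increase (difference 1.66, SE 0.16, adjusted p = 9.32e-05). Vegfa, the angiogenic growth factor, read 10.63 to 10.76 in KO and 10.97 to 11.16 in WT livers (difference -0.38, SE 0.053, adjusted p = 0.00108). Egln1, which encodes an oxygen-sensing prolyl hydroxylase, rose by 0.19 (adjusted p = 0.0471), a call lost in 14 of 18 settings, each of the 10 that left out 1 array among them (adjusted p up to 0.103, and up to 0.177 over all settings). The list went both ways, with a median of -0.07.

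**Figure D4:**
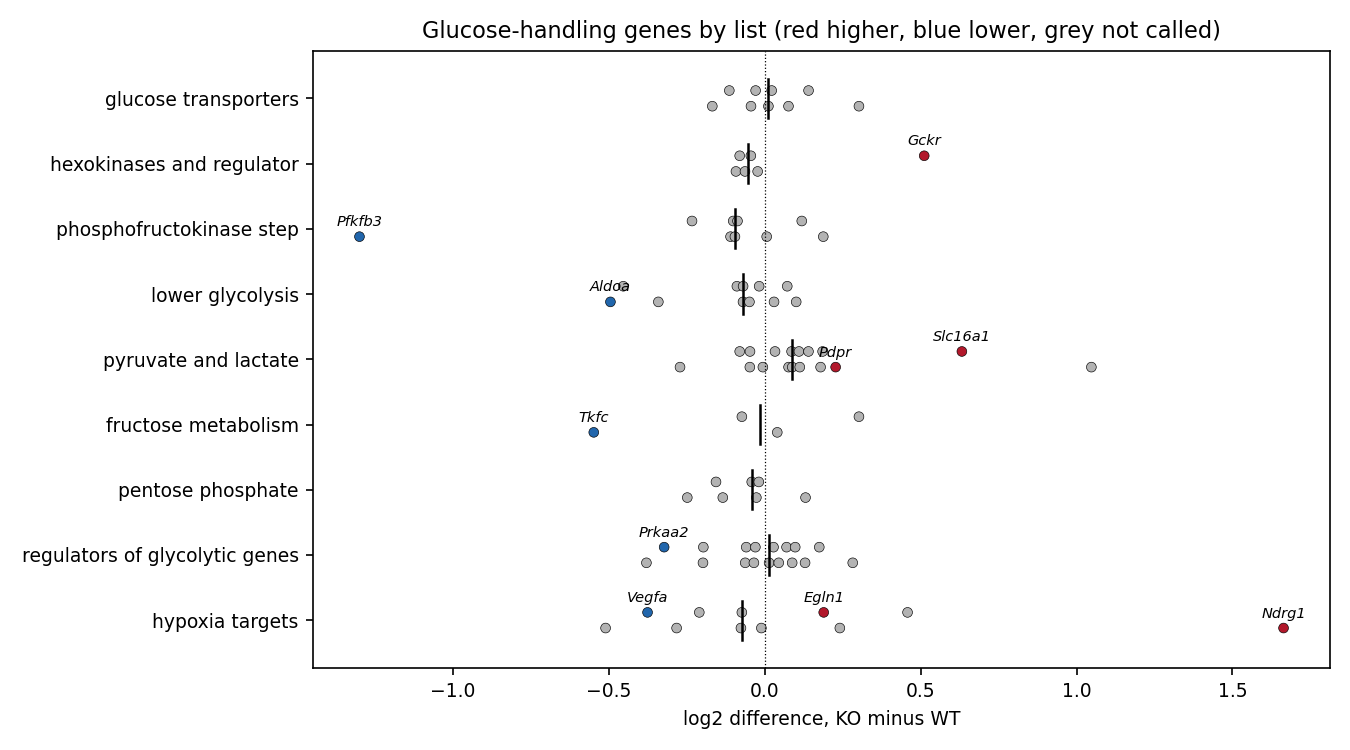
Log2 difference, KO minus WT (x axis), of every measured gene of the 9 lists, with the median of each list as a vertical bar. Red points were called higher, blue points lower and grey points not called. The 10 called genes are named, with Pfkfb3 (-1.30) and Ndrg1 (1.66) at the ends.

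Pfkfb3 is also made by endothelial and immune cells, and in whole liver fewer cells of a type and less RNA per cell cannot be told apart. The summed linear intensity of 7 sinusoidal endothelial markers was 6443 to 7958 in KO and 5928 to 7491 in WT livers, and that of 6 Kupffer cell markers 3177 to 4378 in KO and 3380 to 4997 in WT livers. Limma called 0 of these 13 genes, with 2 of the 7 and 0 of the 6 at an unadjusted p under 0.05. Called genes were also 0 in the lists of stellate cell, neutrophil, lymphocyte, adipocyte, skeletal muscle and exocrine pancreas markers (1, 0, 1, 1, 0 and 0 at an unadjusted p under 0.05). Of 5 cholangiocyte markers, Sox9 rose by 0.62 (SE 0.13, adjusted p = 0.0129). The other 4 were not called, with differences of -0.11 to 0.11. The summed intensity of all 5 was 741 to 945 in KO and 624 to 720 in WT livers, and that of the 4 without Sox9 was 381.2 to 433.4 in KO and 406.5 to 452.7 in WT livers. The part of Sox9 in the differences of Gckr and Pfkfb3 was not tested.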

How the data were processed

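Intensities of 27541 probe sets on 10 arrays were deposited on a linear scale, and log2 was taken first. The submitters' processing notes name RMA and Partek, with no version, and the sources used here do not say whether rows were filtered. Probe sets with exactly 1 gene symbol in the array annotation were kept (21631, while 1317 named several genes and 4593 none), and the one of highest mean stood for each of the 951 genes with more. KO and WT were compared by limma 3.58.1 (R 4.3.3), two-sided and without covariates, with Benjamini-Hochberg adjustment over 19933 genes. Errors are SD over mice or SE of the fit. The 27 named genes are the measured members, every called gene of the lists and the 3 of each list with the smallest adjusted p. The 5 genes most and the 5 least like Pfkfb3 are also named but only described, and were not run under the alternatives. The members and lists were chosen with earlier results of these data known. On simulated data of 19933 genes, 50%, 86%, 98% and 98% of genes with log2 changes of 0.25, 0.5, 1 and 1.5 were recovered, and 4.05% of calls were false. The noise there was normal, at each gene's own SD and independent between genes, and 50 genes picked at random were changed per size. Noise shared between genes was not simulated, and the shares do not describe a single gene of wide spread such as Pfkfb3. The alternatives were each probe set by itself, probe set means, a filter on dim genes, median centring, quantile normalization, a robust trended variance, array weights, leaving out each array and, chosen after seeing the data, leaving out the 3 arrays of widest interquartile range.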

Additional observations from a re-analysis of the deposited data

Results flagged for a closer look

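Of 54 groups of 5 livers examined (27 named genes in each genotype), 3 held a value far from the other 4 by Dixon's ratio, and chance alone flags about 1 in 20 groups. KO replicate 3 read 10.74 for Aldoa, against 10.63 to 10.65 in the other KO livers, and still lay below every WT liver. The same mouse read 8.15 for Slc2a8, against 7.90 to 7.92 in the other KO livers. KO replicate 5 read 10.78 for Foxo1, against 10.20 to 10.28 in the other KO livers. No measured member had such a value in either genotype, and the highest ratio among them was 0.688, for Pfkl in KO replicate 2.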

How the results depend on the processing

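The 6 measured members kept their direction in all 108 values from 18 settings each, and 99 stayed on the same side of the threshold. Pfkfb3 lost its call in 4 settings (adjusted p 0.0526 to 0.152, with 0.0590 for a robust trended variance), and Pfkl (3 settings) and Pklr (2) gained one. The count of called members, 2 with all arrays, was 1 with a robust trended variance and 1 without the 3 arrays of widest interquartile range, and 1 to 3 when single arrays were left out. Without those 3 arrays 527 genes were called against 1119, and 6 against 10 in the pathway lists, with fewer arrays in the fit. Leaving out 1 array gave 805 to 1248 called genes and 8 to 13 in the lists. The other 21 named genes of the lists kept their direction in 378 values, of which 16 lost and 3 gained a call, and the genes most and least like Pfkfb3 were not run under these settings. No paired analysis was possible because the labels give the mice no numbers shared between genotypes. Without detection calls in the deposited table, how far a member lies above background cannot be given.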
